A study of Mus musculus with 47 samples.

Results

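The hippocampal transcriptomes of TG and WT mice on SD were compared, with 6 libraries in each group out of the 47 libraries of the series. TG mice carry a transgene under a Thy1 promoter that is active in neurons of the central nervous system. Thy1 itself encodes a glycoprotein anchored to the neuronal surface, and its regulatory sequence is widely used to drive transgenes in neurons of the hippocampus and other regions. Both genotypes were on C57BL/6. TG mice were homozygous. WT mice were bred apart from them and trace back to the outcross that also gave the TG mice. All animals were males of 12 months of age that had received SD, the standard chow, from weaning. RNA came from whole hippocampus, and poly(A) libraries were sequenced. Because the transgene and the colony always went together, an effect of the transgene and a difference between the colonies cannot be told apart. The members of the comparison were the genes that averaged 50 or more reads across the 24 hippocampus libraries, 13272 of 31751 genes in the table.

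The libraries held 13834438 to 16124990 counts in TG SD and 13192398 to 15592046 in WT SD. The labels number the libraries 3 to 8 in each group, and these replicate numbers are used below. Genes of the mitochondrial genome took 8.55 to 11.8% of the counts in TG SD and 8.32 to 10.1% in WT SD. TG SD replicates 5 and 6 were highest in this share. The dependence of a library's counts on GC content, as the log2 slope per 10% GC, ran from -0.19 to 0.05 in TG SD and from -0.10 to 0.07 in WT SD. Markers of the hippocampus were present in every library, with Prox1, a transcription factor of dentate granule cells, at 883 to 1814 normalized counts. Normalized counts are counts scaled by TMM to a common library size, and they are the unit of all single-library values below. They were not divided by gene length, so they do not rank genes against each other.

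Differentially expressed genes (DEGs) passed 2 thresholds in the quasi-likelihood test of edgeR, fitted with 4 surrogate variables: an adjusted p no higher than 0.05 and a log2 fold change of 0.3 or more in either direction. Between TG SD and WT SD, 13 of 13272 genes were DEGs, which is 0.098% of those tested. Of these, 8 were higher (0.0603%) and 5 lower (0.0377%) in TG SD. Of the 13 DEGs, 12 are described below. Thy1 led the higher genes among them, followed by Fam184b, Gm15446, Frem3, Zfp932, Sh2d3c and Car12. The lower genes were Cntn3, Auh, Serpina3n, Scn4b and Cbarp. Replicates 5 and 6 of both groups stood apart in mitochondrial and ribosomal levels, given further on, and without these 4 libraries 5 DEGs were left, Thy1, Cntn3, Cbarp and Auh among them. The median log2 fold change over all tested genes was -0.00057, with a median standard error of 0.063. In whole tissue, fewer cells of a type and less RNA per cell cannot be told apart, which holds for every gene below.

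Thy1 (ENSMUSG00000032011, chromosome 9) checked the genotype labels. It was at 98783, 100550, 112242, 117288, 97401 and 97822 normalized counts in TG SD. In WT SD it was at 8657, 8210, 8354, 7857, 7986 and 7857. All TG libraries lay above all WT libraries, at 12.8 times the WT mean, and the log2 fold change was 3.71 ± 0.04 (SE, n = 6 per group; edgeR adjusted p = 4.97e-38). TG replicates 5 and 6 were the highest. Thy1 took 0.677 to 0.774% of the counts in TG SD and 0.0542 to 0.0609% in WT SD. Reads of the endogenous Thy1 gene and reads of the transgene cassette cannot be told apart in this row.

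Of the homologs of familial Parkinson disease genes, 16 of 16 were tested, and none passed the test at an adjusted p of 0.05. Their median log2 fold change was 0.01, with 9 fitted higher and 7 lower. Lrrk2, a kinase gene of dominant Parkinson disease, had a log2 fold change of 0.12 ± 0.06 (adjusted p = 0.50). Sncb, a gene of a presynaptic protein, had a log2 fold change of -0.01 ± 0.04 (adjusted p = 0.98), and its sign changed under some settings.

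**Figure D1:**
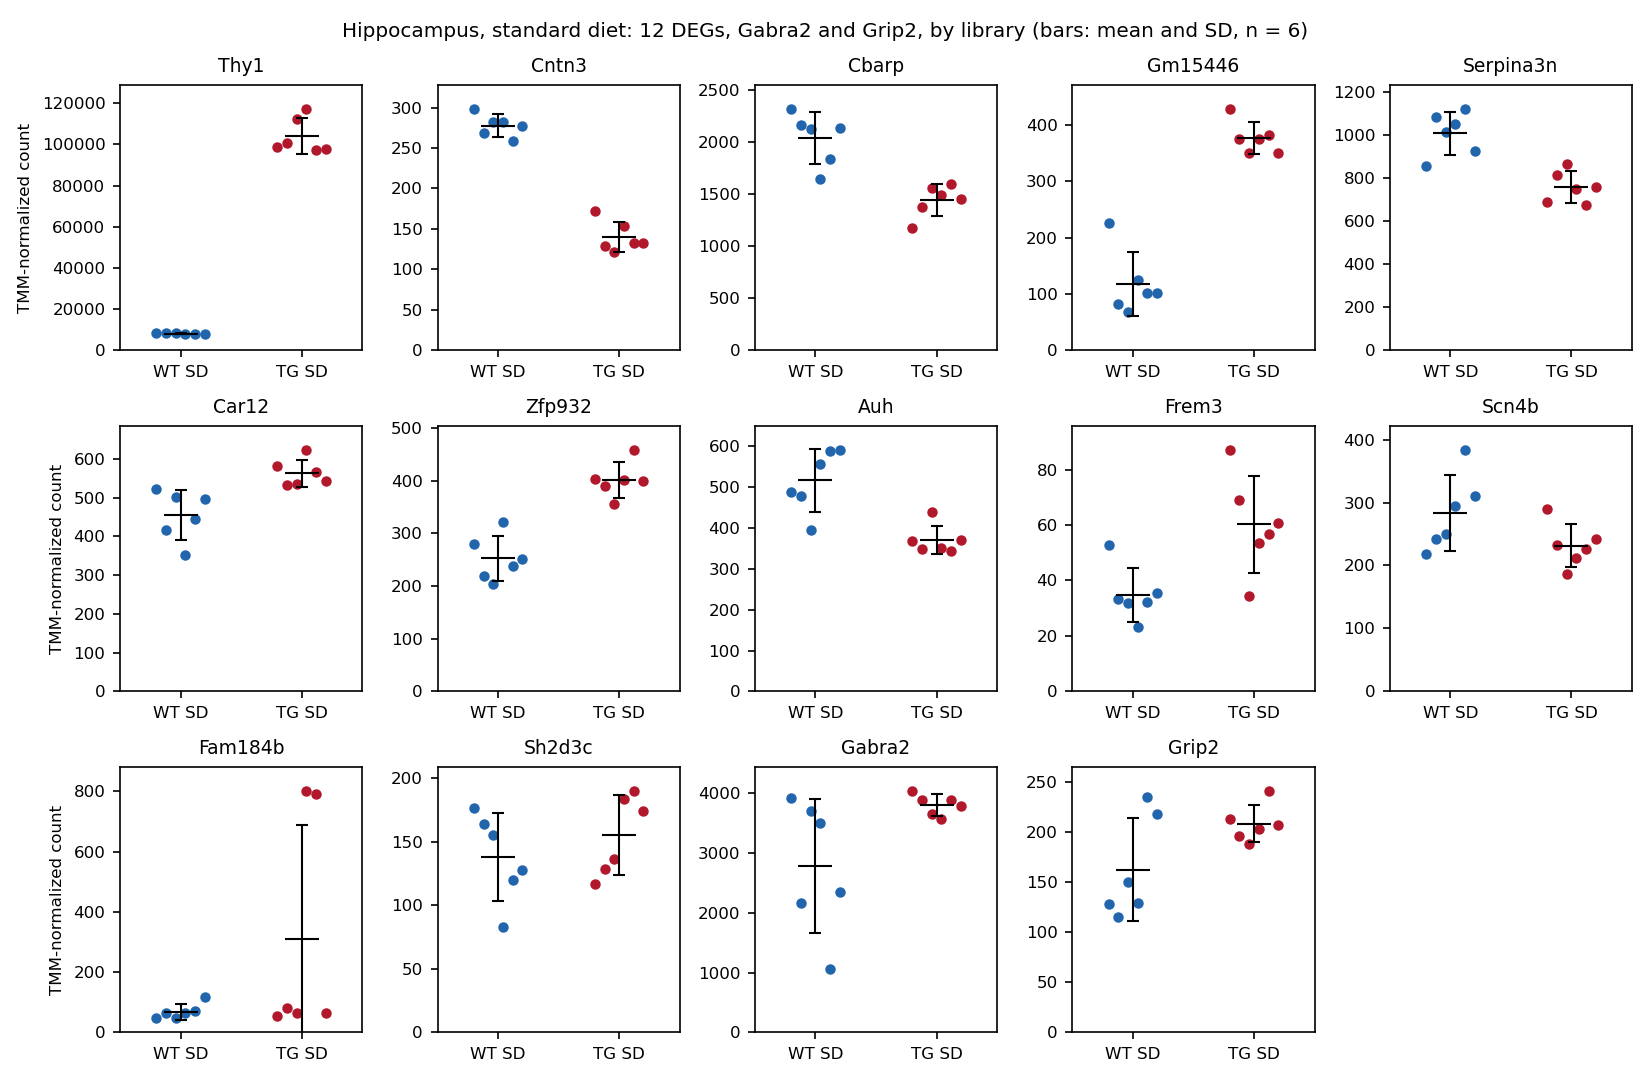
TMM-normalized counts of 12 DEGs, Gabra2 and Grip2 in each library of WT SD (blue) and TG SD (red). Black bars are the mean and SD of 6 libraries, and all axes start at 0. Thy1, Cntn3, Cbarp, Gm15446, Car12 and Zfp932 show no overlap, whereas 2 TG libraries carry the Fam184b difference.

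Cntn3 and Cbarp, a pair of neuronal genes, fell in TG SD with no overlap between the groups. Cntn3 (ENSMUSG00000030075, chromosome 6) encodes contactin 3, a cell adhesion molecule anchored to the neuronal membrane. It was at 172, 129, 122, 153, 132 and 133 normalized counts in TG SD. In WT SD it was at 299, 268, 282, 282, 258 and 277. The highest TG library lay well under the lowest WT library, and the TG mean was 50.5% of the WT mean, with a log2 fold change of -0.998 ± 0.077 (adjusted p = 1.49e-10). Of 17 tested contactins, contactin-associated proteins and their partners, Cntn3 was the 1 gene past the test. Their median log2 fold change was -0.01. Cntn4 came next among the contactins, at -0.17 ± 0.07 (adjusted p = 0.42).

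Cbarp (ENSMUSG00000035640, chromosome 10) encodes a regulator of the β subunit of voltage-gated calcium channels. It was at 1173, 1378, 1558, 1495, 1603 and 1454 normalized counts in TG SD. It was at 2322, 2161, 2126, 1647, 1836 and 2139 in WT SD. The groups did not overlap but came close, since WT replicate 6 lay just above the highest TG library. The log2 fold change was -0.38 ± 0.03 (adjusted p = 3.13e-10). Of 17 tested calcium channel genes and partners, Cbarp was the 1 gene past the test, and the median of the list was -0.01.

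Gm15446 and Zfp932, which lie next to each other among the tested genes of chromosome 5, both rose in TG SD. Zfp932 encodes a zinc finger protein. Gm15446 (ENSMUSG00000090015) was at 429, 376, 350, 376, 382 and 350 normalized counts in TG SD. It was at 226, 81.9, 67.9, 125, 101 and 101 in WT SD, where replicate 3 stood above the others. The groups did not overlap, with a log2 fold change of 1.70 ± 0.23 (adjusted p = 4.61e-05).

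Zfp932 (ENSMUSG00000066613) was at 404, 389, 355, 401, 459 and 399 in TG SD. It was at 280, 220, 204, 322, 238 and 251 in WT SD. All TG libraries were above all WT libraries, and the log2 fold change was 0.57 ± 0.10 (adjusted p = 0.00243). Without replicates 5 and 6 of both groups, Gm15446 was at 1.49 (adjusted p = 0.29) and Zfp932 at 0.55 (adjusted p = 0.38). Zinc finger genes form a large family of similar genes, so reads may be shared between copies, and the values of both genes are uncertain to that extent.

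Car12 (chromosome 9), which encodes a membrane-bound carbonic anhydrase, was the remaining one of the DEGs described here that rose with no overlap. It was at 532 to 624 normalized counts in TG SD, with a median of 554, and at 351 to 522 in WT SD, with a median of 470. The log2 fold change was 0.38 ± 0.06 (adjusted p = 0.00243). WT replicate 6 was the lowest library, and without it the log2 fold change was 0.22 (adjusted p = 0.34). Without surrogate variables the adjusted p was 0.23. Of 8 tested carbonic anhydrases, 6 were fitted higher. Car4, a membrane-anchored member, had a log2 fold change of 0.18 ± 0.05 (adjusted p = 0.20).

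Serpina3n and Auh fell, with an overlap of the groups in each case by 1 library on either side. Serpina3n (ENSMUSG00000021091, chromosome 12) encodes a secreted protease inhibitor that reactive astrocytes make. It was at 691, 816, 867, 752, 675 and 759 normalized counts in TG SD. It was at 858, 1084, 1016, 1051, 1123 and 928 in WT SD. TG replicate 5 reached just above WT replicate 3, and the log2 fold change was -0.43 ± 0.07 (adjusted p = 0.00243). Of 7 tested reactive astrocyte genes, Serpina3n was the 1 gene past the test, and 6 were fitted lower, with a median log2 fold change of -0.11. Without replicates 5 and 6 of both groups, Serpina3n was at -0.48 (adjusted p = 0.21). Gfap, the intermediate filament of astrocytes, was at -0.10 ± 0.05 (adjusted p = 0.56), and C4b, a complement gene, at -0.20 ± 0.07 (adjusted p = 0.32), although its median was 800 normalized counts in TG SD and 767 in WT SD. Among the 11 tested astrocyte genes, 6 were fitted higher and 5 lower.

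Auh (ENSMUSG00000021460, chromosome 13) encodes the mitochondrial methylglutaconyl-CoA hydratase of leucine breakdown. It was at 369, 350, 438, 351, 343 and 371 normalized counts in TG SD. It was at 489, 479, 396, 556, 589 and 592 in WT SD. TG replicate 5 was high and WT replicate 5 low, and the other libraries were apart. The log2 fold change was -0.52 ± 0.09 (adjusted p = 0.00284). Of 13 enzymes of mitochondrial leucine breakdown and their regulators, 12 were fitted lower, with a median of -0.05, and Auh was the 1 gene past the test. Dbt, the core subunit of the branched-chain keto acid dehydrogenase, was at -0.20 ± 0.07 (adjusted p = 0.28).

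The calls of the other DEGs changed when a library was left out or when no surrogate variables were used. Fam184b (chromosome 5) was at 802 and 791 normalized counts in TG replicates 6 and 7. The other 4 TG libraries were at 53.9, 81.1, 64.8 and 62.8, within the WT range of 46.7 to 118. Its log2 fold change of 2.09 ± 0.45 (adjusted p = 0.046) thus came from 2 animals, and it was 1.43 without replicate 6 and 1.18 without replicate 7, with adjusted p values of 0.27 and 0.43. Frem3 (chromosome 8), which encodes an extracellular matrix protein, had a median of 58.8 in TG SD and of 32.8 in WT SD. TG replicate 5, at 34.3, lay among the WT libraries, and the log2 fold change was 0.90 ± 0.16 (adjusted p = 0.00609). The other 5 TG libraries lay above every WT library. Without WT replicate 6 the log2 fold change of Frem3 was 0.79 (adjusted p = 0.20), without WT replicate 8 it was 0.79 (adjusted p = 0.06), and over the 12 fits that left out 1 library it ran from 0.79 to 0.99.

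Scn4b (chromosome 9), an auxiliary subunit of voltage-gated sodium channels, ranged from 186 to 289 in TG SD and from 219 to 384 in WT SD. Its log2 fold change was -0.41 ± 0.09 (adjusted p = 0.028), and it was called in 3 of the 12 fits that left out 1 library. Sh2d3c (chromosome 2), an adaptor of signalling by tyrosine kinases, ranged from 117 to 190 in TG SD and from 82.7 to 177 in WT SD, so the groups overlapped almost fully. Its log2 fold change was 0.42 ± 0.09 (adjusted p = 0.0499) with the surrogate variables and 0.17 (adjusted p = 0.93) without them. Scn4b without surrogate variables was at -0.30 (adjusted p = 0.81).

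At an adjusted p of at most 0.05 with no limit on the fold, 21 genes were called (0.158%), 13 higher (0.098%) and 8 lower (0.0603%). The 8 genes beyond the DEGs had smaller folds. Resp18, a gene of the dense-core secretory pathway, was at 430 to 610 normalized counts in TG SD and 372 to 471 in WT SD, with a log2 fold change of 0.30 ± 0.06 (adjusted p = 0.025). Rpl9, a protein of the large ribosomal subunit, was at 0.14 ± 0.03, Arhgap26, a GTPase-activating protein, at 0.20 ± 0.04, Pak6, a protein kinase, at 0.20 ± 0.04, and Hpcal1, a neuronal calcium sensor, at 0.29 ± 0.06. Their adjusted p values were 0.018, 0.028, 0.047 and 0.047. The lower genes were Slc38a3, a glutamine transporter, at -0.29 ± 0.05, Abhd4, a lipase gene, at -0.22 ± 0.04, and Ahi1, a gene of the ciliary transition zone, at -0.18 ± 0.04. Their adjusted p values were 0.0048, 0.0073 and 0.012. The 2 groups overlapped in each of the 8 genes. Without surrogate variables their adjusted p values were 0.48 to 0.963. The folds of Ahi1 (-0.20), Resp18 (0.28), Arhgap26 (0.19) and Rpl9 (0.19) were within 0.05 of their values with surrogate variables, whereas Pak6 was at 0.07, Abhd4 at -0.15, Slc38a3 at -0.22 and Hpcal1 at 0.20.

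In 35 genes (0.264%) the 2 groups of 6 libraries did not overlap, with 27 higher (0.203%) and 8 lower (0.0603%) in TG SD, and 7 of them were DEGs. With 6 libraries per group, some genes separate fully by chance, and their number was not computed. The genes below were picked because they separate, and none of the 28 beside the DEGs passed the test. Pou3f2, a transcription factor of cortical neurons, had the lowest p among the other 28. It was at 128, 120, 125, 133, 152 and 118 normalized counts in TG SD and at 89.5, 96.4, 80.7, 96.7, 92.2 and 89.5 in WT SD. Its log2 fold change of 0.47 ± 0.11 missed the threshold (adjusted p = 0.063), whereas without surrogate variables it passed (0.51, adjusted p = 0.040). Some of the genes picked in this way differed little and had a narrow spread in both groups. Nefl, the light chain of neurofilaments, was at 5110 to 5340 in TG SD and 4768 to 4943 in WT SD, with a log2 fold change of 0.10 ± 0.03 (adjusted p = 0.24). Trim35, a ubiquitin ligase gene, was at 2192 to 2290 in TG SD and 2315 to 2434 in WT SD, with a log2 fold change of -0.09 ± 0.03 (adjusted p = 0.24). Ccl28, a chemokine gene, was at 85.0 to 113 in TG SD, and its WT libraries were spread from 25.3 to 81.8, with a log2 fold change of 0.79 ± 0.23 (adjusted p = 0.23). Hbs1l, a ribosome rescue factor, was at 0.17 ± 0.05 (adjusted p = 0.18) and is the neighbour of Ahi1 among the tested genes of chromosome 10. The remaining genes of lowest p in this set were Gm29170, Fam172a, Strap, Eif1a and Clptm1l, at log2 fold changes of 0.10 to 0.41.

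Gabra2 and Grip2 were more spread out in WT SD than in TG SD, a difference that was not tested. In both genes all 6 TG libraries lay above the WT median. Gabra2, the α2 subunit of the GABA-A receptor (chromosome 5), was at 4039, 3887, 3646, 3559, 3887 and 3782 normalized counts in TG SD. In WT SD, replicates 3, 5 and 6 were at 3913, 3707 and 3502, within or just under the TG range. WT replicates 4, 7 and 8 were far lower, at 2162, 1054 and 2350. The coefficient of variation was 4.63% in TG SD and 40.1% in WT SD, and the log2 fold change of 0.48 ± 0.15 did not pass the test (adjusted p = 0.25). Of 17 tested GABA-A receptor subunits and partners, none passed the test, and the median was 0.00241. Grip2, a scaffold protein of AMPA receptors, was at 189 to 242 in TG SD. In WT SD, replicates 7 and 8 lay in that range, at 235 and 219, and the other 4 at 115 to 151. Its log2 fold change was 0.32 ± 0.15 (adjusted p = 0.50).

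The genotype difference was set beside the same difference on HFD in hippocampus, which comes from other animals. On HFD, 30 of 13272 genes were DEGs (0.226%). All 13 DEGs of SD had the same fitted sign on HFD, and 7 were DEGs there as well, 53.8% of the SD list and 23.3% of the HFD list. Both differences came from 1 model with the same surrogate variables. The share of all tested genes with the same sign on both diets was not counted. Thy1, Cntn3, Cbarp, Gm15446, Serpina3n and Car12 were among these. Cntn3 was at -1.02 on HFD, Cbarp at -0.47, Serpina3n at -0.49 and Car12 at 0.40. Auh was at -0.36 (adjusted p = 0.20) and Zfp932 at 0.46 (adjusted p = 0.12). Fam184b had a fitted log2 fold change of 1.36 on HFD (adjusted p = 0.51), although its group means there were 57.0 in TG and 60.2 in WT. The difference between the genotype effects of the 2 diets was tested as an interaction. It passed for 0 genes by edgeR, with an unadjusted p of 0.05 or less for 794 (5.98%), and for 1 gene, Gm13339, by DESeq2. None of the 13 DEGs reached an unadjusted p of 0.05 in this test. Grip2 had a log2 difference of -1.06 ± 0.21 between the diets (adjusted p = 0.13), from 0.32 on SD to -0.74 on HFD.

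**Figure D2:**
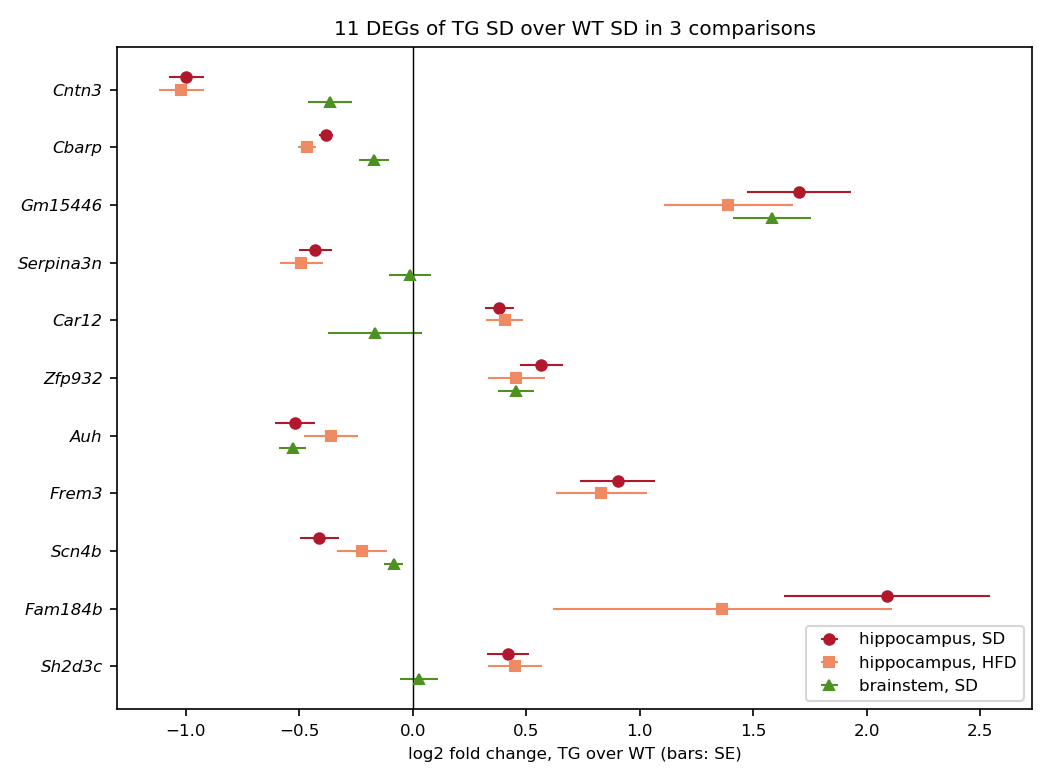
Log2 fold changes (x axis, bars SE) of TG over WT for 11 of the DEGs, in hippocampus on SD (red circles) and HFD (orange squares) and in brainstem on SD (green triangles). Cntn3 is near -1 on both diets in hippocampus and at -0.37 in brainstem, while Auh, Gm15446 and Zfp932 lie close together in the 3 comparisons; Frem3 and Fam184b were not tested in brainstem.

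Brainstem on SD was set beside hippocampus with 6 TG and 5 WT libraries. Both regions were taken from 6 mice per group, so hippocampus and brainstem libraries may come from the same animals, although the labels do not tie libraries to animals, and the regions cannot be taken as independent samples. In brainstem, 19 of 13340 genes were DEGs (0.142%). Of the 13 hippocampal DEGs, 11 were tested in brainstem, 10 with the same sign, and 5 were DEGs in both regions. The share of all genes with the same sign in both regions was not counted. Among these were Thy1 (3.85), Gm15446 (1.58), Zfp932 (0.45) and Auh (-0.53), by log2 fold change in brainstem. Serpina3n was at -0.01 (adjusted p = 0.98), Cbarp at -0.17 (adjusted p = 0.31) and Car12 at -0.17 (adjusted p = 0.83). Cntn3 was at -0.37 (adjusted p = 0.11). Gabra2, not called in hippocampus, was at 0.70 in brainstem (adjusted p = 0.00265). The difference between the regions was tested in a joint fit without surrogate variables, so it need not equal the gap between the values above. It passed for 0 of 12619 genes by edgeR, with an unadjusted p of 0.05 or less for 272 (2.16%). It passed for 0 by DESeq2, with 275 at that unadjusted p. The share of 2.16% is lower than this threshold gives by chance, so 0 genes do not show that the regions are alike. For Cntn3 the difference of the log2 fold changes, hippocampus less brainstem, was -0.56, with an unadjusted p of 0.00027 (adjusted p = 0.9998). For Serpina3n it was -0.37, with an unadjusted p of 0.0067 (adjusted p = 0.9998).

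By chromosome, 3 of the 13 DEGs were on chromosome 5 (Fam184b, Gm15446 and Zfp932) and 3 on chromosome 9 (Thy1, Car12 and Scn4b). These chromosomes hold 6.25% and 5.47% of the tested genes. Of the tested genes, 29 lie between Thy1 and Scn4b, 199 between Thy1 and Car12 and 205 between Zfp932 and Fam184b. Of the 13 DEGs, 12 are annotated as protein-coding.

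Gene lists were read by counts and medians. With an unadjusted p of 0.05 or less, 9.08% of all tested genes were called, 4.84% higher and 4.23% lower, which is the background for the counts below. Of 47 lists, 6 held a DEG, and 8 a gene at an adjusted p of at most 0.05. In the 45 lists plotted, medians ran from -0.21 to 0.09 on the log2 scale, and 33 lay within 0.05 of 0. The median of 11 lists changed sign when no surrogate variables were used.

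**Figure D3:**
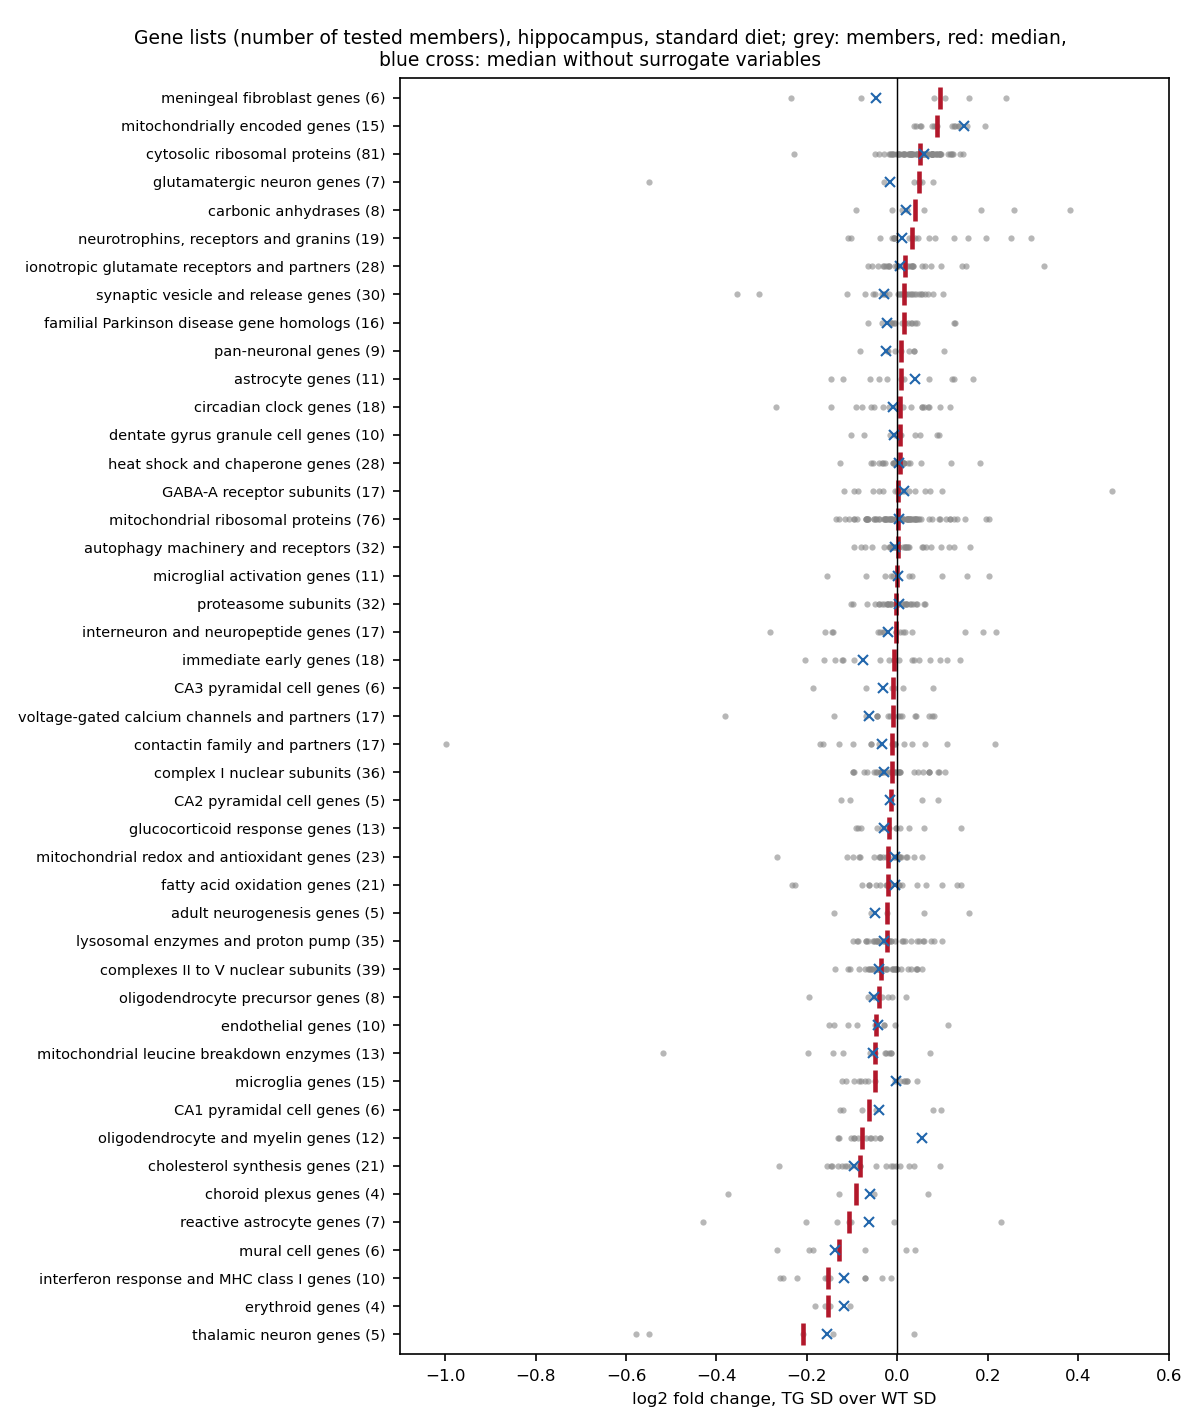
Log2 fold changes of TG SD over WT SD (x axis) for the tested members (grey) of 45 gene lists (rows, with the number of members tested). Red bars are medians and blue crosses the medians of the fit without surrogate variables; the myelin list changes side between the fits, and most medians lie within 0.05 of 0.

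The list of mitochondrially encoded genes held 15 of the 18 tested genes of the mitochondrial genome, those of respiratory chain subunits and the rRNAs. All 15 were fitted higher in TG SD, with a median of 0.09. At the unadjusted threshold 8 were higher, but none passed after adjustment. mt-Co3, a cytochrome c oxidase subunit, was at 0.14 ± 0.03 (adjusted p = 0.13). Their summed level was 95.5 to 140% of the WT mean in TG SD and 91.9 to 114% in WT SD. TG replicates 5 and 6 were at 140 and 133%, and the other 4 TG libraries at 95.5 to 100.5%. WT replicates 5 and 6 were also the highest of their group, at 107 and 114%. Without TG replicates 5 and 6, the median was 0.06 and 1 gene was higher at the unadjusted threshold, and without replicates 5 and 6 of both groups the median was 0.03 and 12 of the 15 were higher.

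The cytosolic ribosomal proteins moved with the same libraries. Of 81 tested, 70 were fitted higher and 11 lower, with a median of 0.05, 22 were higher and none lower at the unadjusted threshold, and Rpl9 passed after adjustment. The summed level was 91.9 to 124% of the WT mean in TG SD, with replicates 5 and 6 at 119 and 124%, and 94.4 to 110% in WT SD, with replicates 5 and 6 at 110 and 107%. Without replicates 5 and 6 of both groups, 55 of 81 were higher, 7 at the unadjusted threshold, and the median was 0.04. Ribosomal protein genes have many near-identical pseudogenes, so their counts are uncertain. Nuclear genes of respiratory complexes II to V were fitted lower in 32 of 39, with a median of -0.04, no gene past the test and 4 lower at the unadjusted threshold. The summed level of complexes II to V was 110 and 106% of the WT mean in TG replicates 5 and 6 and 91.4 to 93.6% in the other TG libraries. It was 106 and 105% in WT replicates 5 and 6 and 94.5 to 100.2% in the other WT libraries, so the groups overlapped through replicates 5 and 6. Without replicates 5 and 6 of both groups, 23 of 39 genes were fitted lower, with a median of -0.03. Nuclear genes of complex I were fitted lower in 22 of 36, with a median of -0.01, and in 16 of 36 without these libraries, with a median of 0.01. Their summed level outside replicates 5 and 6 was 90.8 to 93.8% in TG SD and 94.4 to 100.7% in WT SD. The sums of complex I thus stayed lower in TG SD without these libraries, whereas the fit did not. The fit carries surrogate variables estimated anew and the sums carry none, and the source of the difference was not tested. Sdhc, a membrane subunit of complex II, was at -0.14 ± 0.04 (adjusted p = 0.26). The part of the libraries' mitochondrial share in these values was not tested.

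**Figure D4:**
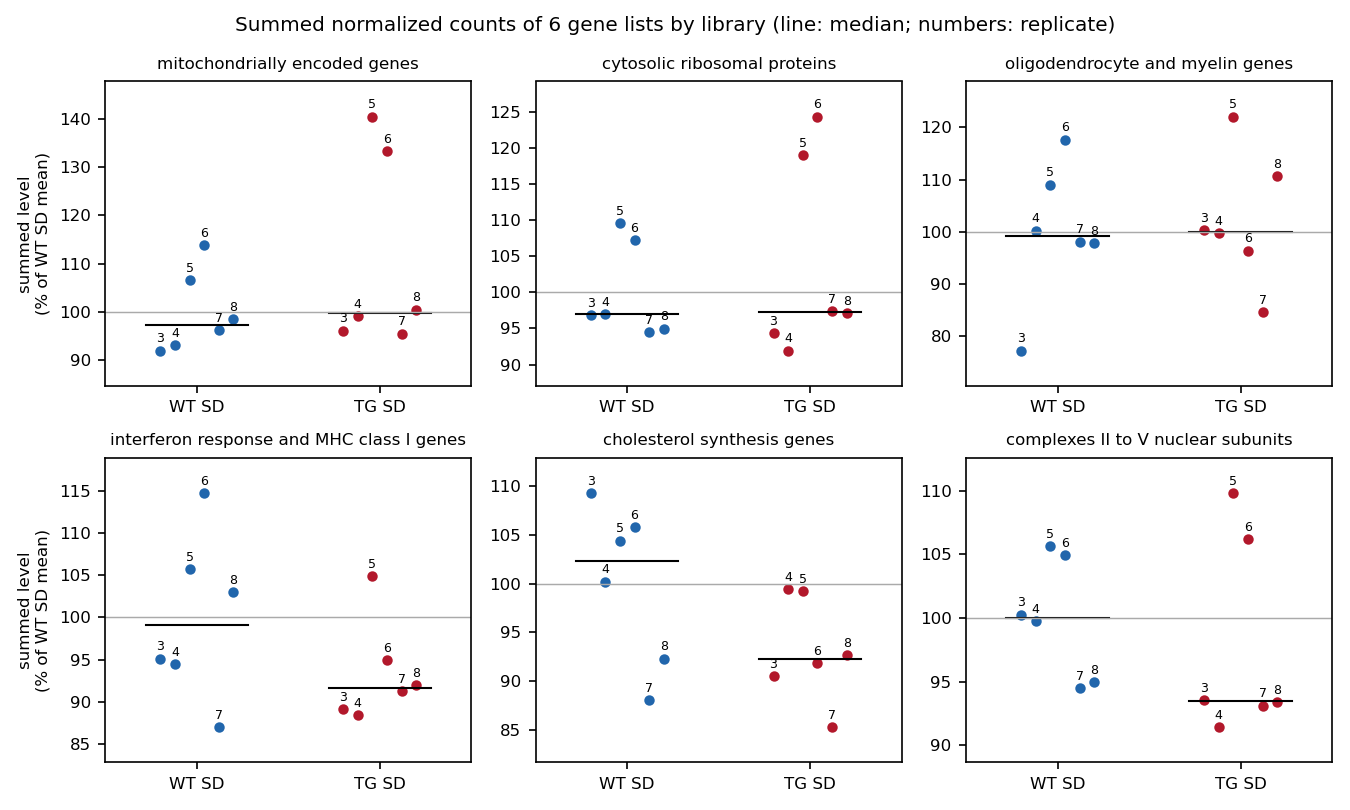
Summed normalized counts of 6 gene lists in each library, as a percentage of the WT SD mean (y axis), with WT SD in blue, TG SD in red, replicate numbers beside the points and lines at the medians. The groups overlap in all 6 lists, and replicates 5 and 6 are the highest of both groups for mitochondrially encoded genes and cytosolic ribosomal proteins.

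Interferon response and MHC class I genes were fitted lower in 10 of 10 tested members, with a median of -0.15. None passed the test, and 3 were lower at the unadjusted threshold. B2m, the light chain of MHC class I, was at -0.16 ± 0.04, and H2-D1, a heavy chain, at -0.25 ± 0.07 (adjusted p = 0.15 for both). Of the 21 genes in the list, 11 were below the count minimum. The summed level was 88.4 to 105% of the WT mean in TG SD and 87.0 to 115% in WT SD. Without replicates 5 and 6 of both groups, 5 of 10 were lower and the median was -0.02.

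Cholesterol synthesis genes were fitted lower in 17 of 21, with a median of -0.08, 5 lower at the unadjusted threshold and none past the test. Srebf2, the transcription factor of this pathway, was at 1998 to 2401 normalized counts in TG SD and 2329 to 2854 in WT SD, and 5 of 6 TG libraries lay below every WT library. Its log2 fold change was -0.16 ± 0.04 (adjusted p = 0.093). Hmgcs1, an early enzyme of the pathway, was at -0.12 ± 0.05 (adjusted p = 0.40). Replicates 5 and 6 of both groups were then left out, with 4 surrogate variables estimated anew. In that fit 13 of 21 genes were higher, with a median of 0.04. Summed levels carry no such adjustment. In the remaining libraries they were 90.5, 99.4, 85.3 and 92.7% of the WT mean in TG SD. In WT SD they were 109, 100, 88.1 and 92.3%, so the groups overlapped with or without replicates 5 and 6. The sums did not turn higher in TG SD, whereas the fitted median did, and the source of this difference was not tested.

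Cell type and subfield lists gave no gene past the test except Serpina3n. Pan-neuronal genes had a median of 0.01 (9 tested), dentate granule cell genes of 0.01 (10), CA1 genes of -0.06 (6), CA2 genes of -0.01 (5), CA3 genes of -0.01 (6) and microglia genes of -0.05 (15). Some small lists lay further from 0, with erythroid genes at -0.15 (4) and mural cell genes at -0.13 (6). Meningeal fibroblast genes were at 0.09 (6), but at -0.05 without surrogate variables. Endothelial genes were fitted lower in 9 of 10 (median -0.05) and oligodendrocyte precursor genes in 7 of 8 (-0.04). Fibcd1, a CA1 marker, was at -0.13 ± 0.06 (adjusted p = 0.54), and its TG replicate 5 stood above the other TG libraries. The 12 oligodendrocyte and myelin genes were all fitted lower with surrogate variables, at a median of -0.08, but 9 were higher without them, at a median of 0.06, and none reached the unadjusted threshold in either fit. Proteasome, chaperone, lysosomal and autophagy genes had medians of -0.00214, 0.00573, -0.02 and 0.00143, with no gene past the test.

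Markers of tissue next to the hippocampus varied between libraries. Of 5 tested thalamic genes, 4 were fitted lower, with a median of -0.21, and 3 were lower at the unadjusted threshold. Zic1, a transcription factor, was at -0.58 ± 0.17 (adjusted p = 0.22), and Slc17a6, the vesicular glutamate transporter of thalamic neurons, at -0.55 ± 0.17 (adjusted p = 0.25). The summed level of the list was 70.1 to 102% of the WT mean in TG SD and 88.3 to 118% in WT SD, and Tcf7l2 and Lef1 were below the count minimum. Ttr, the transthyretin gene of the choroid plexus, ran from 612 to 1680 normalized counts in TG SD and from 369 to 3922 in WT SD. The part of dissection in the DEGs was not tested.

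Among interneuron and neuropeptide genes, 17 were tested and none passed. Of these, 7 were fitted higher and 10 lower, with a median of -0.00386. At the unadjusted threshold 1 was higher and 3 were lower. Penk, the enkephalin precursor, was at -0.28 ± 0.11 (adjusted p = 0.37), and Reln, a secreted protein of interneurons, at -0.16 ± 0.05 (adjusted p = 0.27). Of the neurotrophins, their receptors and granins, 19 were tested, 11 were fitted higher, and Resp18 passed after adjustment. Pcsk1, a prohormone convertase, was at 0.20 ± 0.06 (adjusted p = 0.24). Immediate early genes, which report recent neuronal activity, had a median of -0.01 over 18 tested genes, with 10 fitted lower, and none passed the test. Without surrogate variables 14 were fitted lower, with a median of -0.07.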

How the data were processed

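RNA sequencing libraries of hippocampus from TG and WT mice on SD were grouped by their labels, with 6 separate animals per group. The authors aligned the reads with STAR 2.7.9a and deposited the count of reads per gene without normalization. Some rows of the table are not reported here. The read counter is not given in the sources used here. Symbols, chromosomes and GC content came from a GENCODE annotation of GRCm38, another build than the authors', so no coordinates are given. GC content was missing for 18 tested genes.

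Counts were analysed with edgeR 4.0.16 in R 4.3.3. Genes averaging 50 or more reads across the 24 hippocampus libraries were tested. TMM normalization, the quasi-likelihood test and 4 surrogate variables from sva 3.50.0 were used in 1 model of the 4 groups, and p values were adjusted by Benjamini-Hochberg. Brainstem was fitted in the same way. The region difference was fitted over both tables without surrogate variables. Recovery of known changes was tried on simulated counts as a check of the code. Those counts held no variation shared between libraries, so the check does not bear on the calls above. Figures were drawn with matplotlib 3.10.9. Alternatives were DESeq2 1.42.0, RLE normalization, other filters and numbers of surrogate variables, a GC correction, the replicate number as a block, a model of the 2 groups only, and each library left out in turn. Leaving out replicates 5 and 6 was added after seeing the data. Hippocampus fits with libraries left out kept 4 surrogate variables, estimated anew from the remaining libraries. Normalized counts and the summed levels of gene lists were not adjusted for surrogate variables.

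Named genes were all DEGs, the genes at an adjusted p of at most 0.05 with a smaller fold, the 10 genes of lowest p among other genes whose groups do not overlap, in each list the 3 members of lowest p and the most abundant one, and a fixed set around the transgene. The comparison, gene lists and rules were chosen with earlier results of these data known.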

Additional observations from a re-analysis of the deposited data

Results flagged for a closer look

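Among 68 genes tested in 2 groups of 6, 1 library stood apart from the rest of its group by Dixon's criterion in 10 cases of 136, and chance gives about 1 in 20. In TG SD, the highest library was at 438 normalized counts for Auh, 833 for Hpcal1 and 2819 for Fibcd1, and the lowest at 85.0 for Ccl28. In WT SD, the highest library was at 226 for Gm15446, 118 for Fam184b, 1274 for Abhd4, 1285 for C4b and 372 for Dbt, and the lowest was at 1529 for Strap. The Gm15446 library is WT replicate 3, which is still below every TG library. The C4b and Abhd4 libraries are both WT replicate 6, and the Auh and Fibcd1 libraries are both TG replicate 5.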

How the results depend on the processing

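The 13 DEGs became 21 with no fold threshold, 8 with a GC correction and no surrogate variables, 6 with the 2 groups alone and no surrogate variables, and 5 without replicates 5 and 6 of both groups, a setting chosen after seeing the data that leaves 4 libraries per group. With each library left out in turn the count ran from 8, without WT replicate 6, to 18. Thy1, Cntn3 and Cbarp were called in all 12 of these fits and in all 18 other fits, and Gm15446, Zfp932 and Auh in 12 and 17. Serpina3n was called in 12 and 16, Frem3 in 10 and 13, Car12 in 9 and 8, Fam184b in 6 and 6, Scn4b in 3 and 5, and Sh2d3c in 3 and 3. The interaction, at 0 genes, gave 1 gene by DESeq2 with surrogate variables (Gm13339), 1 without them (Grip2), 5 with a total count of at least 50 as the filter (5730419F03Rik, Gm13339, Grip2, Gm26822 and Malat1), and 0 to 3 with a library left out, 3 of them without WT replicate 7. The region difference gave 1 gene, Zfp382, when surrogate variables were added, and 0 to 0 with a library left out. The cause of these changes was not tested. Signs reversed only among genes not called. Sncb was at 0.00652 with filterByExpr, at 0.00666 with the replicate block, at 0.00997 without TG replicates 5 and 6 together, and from -0.042 to 0.00702 with a library left out, Lrrk2 was at -0.00345 without replicates 5 and 6 of both groups, and Ttr ran from -1.26 to 0.10 with a library left out. The labels do not say whether same-numbered TG and WT libraries belong together. Deviations of same-numbered libraries correlated at over 0.1 for 2 of 6 numbers (-0.08 to 0.38), and 2 of 6 libraries correlated best with their own number. These correlations cannot settle whether a number stands for a shared step. The replicate block gave 16 DEGs with surrogate variables, 12 of them among the 13, 10 without them, and 12 with the GC correction. It gave 0 genes for the interaction and for the region difference.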

Other observations

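A few genes were high in single libraries of 1 group, and they were chosen after their values were seen. Slc26a6, an anion exchanger gene, was at 2201 normalized counts in TG replicate 3 and at 53.7 to 88.0 in the other 11 libraries. Gm29611 was at 1026 in WT replicate 6, at 120 in WT replicate 8 and at 0 to 18.8 elsewhere, with a log2 fold change of -4.35 that did not pass the test (adjusted p = 0.16). Gm29611 was a DEG with a total count of at least 50 or filterByExpr as the filter, and without TG replicate 3, TG replicate 7, WT replicate 4 or WT replicate 5. Nnt, the mitochondrial transhydrogenase gene, had 0 to 6 reads per library in TG SD and 1 to 5 in WT SD, below the count minimum.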
